A study of Rattus norvegicus with 60 samples.

Results

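The interferon-stimulated genes described here are 37 genes listed by name as induced by type I or type II interferon, and 36 of them were found by an exact match of the gene symbol in a lung count table of 30045 rows. Xaf1 had no matching symbol. All 36 found members passed the filter on low counts and were among the 15995 genes tested. The rats were male Fischer 344 (F344/DuCrl, CDF) animals aged 3 months. In a whole-body chamber they inhaled MWCNT (multi-walled carbon nanotubes, fibres built of nested graphene cylinders) or, as controls, filtered air, on 3 days for 6 hours each, and lung RNA was sequenced from tissue collected 1 day later. The study had 5 exposure runs, called sets, whose cumulative doses ran from 11.25 through 22.5, 45 and 90 up to 180 mg/m3, each with air rats of its own. No group carried a transgene or any agent other than MWCNT or air.

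Groups are named by treatment and set, with the codes 180, 090, 045, 022 and 011 for the 5 doses from highest to lowest. Without the 7 libraries that the submitters labelled as outliers, 53 libraries remained. They were 6 air rats and 5 exposed rats at 180 mg/m3, 6 and 4 at 90 mg/m3, 3 and 6 at 45 mg/m3, 6 and 6 at 22.5 mg/m3, and 6 and 5 at 11.25 mg/m3. Total counts per library, in units of 1000000, ran from 8.10 to 16.2 with a median of 11.2. The list of 10 lung structural markers, such as surfactant protein and club cell genes, was fully present and summed to between 25871 and 40989 CPM (counts per 1000000 counts of the library) in these libraries. Every set was a run of its own, so dose and run cannot be told apart when sets are compared. Each rat gave 1 library from a piece of whole lung, and fewer cells of a type and less RNA per cell cannot be told apart in such tissue.

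Interferons are cytokines that cells release on meeting viruses or other danger signals. Type I interferons act through a receptor whose signal brings a complex containing STAT2 and IRF9 to the interferon-stimulated response element (ISRE). Interferon gamma, the type II interferon of T and NK cells, acts through another receptor and through the gamma-activated site (GAS). In the lung these genes are known for their part in the defence against respiratory viruses, and the chemokines among them draw activated T and NK cells.

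The promoters are shown first because many members hold these motifs and because the results turn on 3 neighbouring chemokine genes. Of the 37 listed genes, 29 matched RefSeq's promoter table (GRCr8) by symbol, and the search covered 250 bases before and 50 bases after each start on both strands. The ISRE core, GAAA followed by any 2 bases and GAAA again, was present in 17 of the 29 promoters (58.6%) and in 3.92% of all 33469 promoters in the table. GAS, spelled TTCNNNGAA, was present in 9 of 29 (31%) against 8.87% of all. An NF-kB motif, added after the expression values were seen, was present in 6 of 29 (20.7%) against 4.18% of all, namely in Cxcl10, Cxcl11, Irf1, Oasl, Gbp5 and Tap1. In Bst2 an ISRE core and a GAS overlapped by 3 bases. These matches are letters in a window and do not show that a factor was bound.

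The next sequences are the 250 bases before the starts of Cxcl10, Cxcl11 and Cxcl9, which lie side by side on chromosome 14 with 0 annotated protein-coding genes between neighbours. They are printed because the first pair rose in exposed lungs and Cxcl9 did not pass the test. The windows are chr14:15988816-15989065, chr14:15973478-15973727 and chr14:16006916-16007165 in GRCr8, all on the + strand and upstream of exons. Capitals mark the ISRE core, the GAS and the NF-kB motif.
Cxcl10: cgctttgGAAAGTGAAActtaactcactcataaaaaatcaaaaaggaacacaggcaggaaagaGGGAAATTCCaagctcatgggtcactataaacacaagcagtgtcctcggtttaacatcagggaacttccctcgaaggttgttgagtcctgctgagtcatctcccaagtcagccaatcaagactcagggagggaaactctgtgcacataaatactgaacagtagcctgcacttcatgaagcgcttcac
Cxcl11: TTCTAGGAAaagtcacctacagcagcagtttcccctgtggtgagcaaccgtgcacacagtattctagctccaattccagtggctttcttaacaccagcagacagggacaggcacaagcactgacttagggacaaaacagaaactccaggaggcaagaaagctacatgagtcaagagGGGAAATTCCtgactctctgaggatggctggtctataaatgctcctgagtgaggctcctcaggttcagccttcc
Cxcl9: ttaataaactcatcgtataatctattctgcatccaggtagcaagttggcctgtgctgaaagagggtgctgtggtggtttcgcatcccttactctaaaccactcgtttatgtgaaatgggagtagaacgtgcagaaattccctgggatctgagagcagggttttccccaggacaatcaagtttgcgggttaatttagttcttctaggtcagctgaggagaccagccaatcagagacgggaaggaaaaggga

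Cxcl10 had its ISRE core GAAAGTGAAA 243 bases before the start and the NF-kB motif GGGAAATTCC 187 bases before it. The same 10 letters GGGAAATTCC stood 74 bases before the start of Cxcl11, which also had a GAS at the far end of the window. Cxcl9 had none of the 3 motifs in the printed bases, and its only match was a GAS 32 bases after the start. The other members with an NF-kB motif, Irf1, Oasl, Gbp5 and Tap1, did not pass the test at any dose.

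A pair of further promoters stand for the larger group with an ISRE core, Ifit3 as an antiviral effector and Gbp2 as a guanylate-binding protein. Their windows of 100 bases before the start are chr1:241527226-241527325 and chr2:234005627-234005726 in GRCr8, both on the + strand. Capitals mark the ISRE core, which reads on the opposite strand in both and lies 44 bases before the start in Ifit3 and 31 bases before it in Gbp2.
Ifit3: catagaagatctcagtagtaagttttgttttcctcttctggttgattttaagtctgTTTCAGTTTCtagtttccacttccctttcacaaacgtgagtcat
Gbp2: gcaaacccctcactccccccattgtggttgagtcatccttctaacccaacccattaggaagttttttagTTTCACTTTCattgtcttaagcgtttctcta

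At the highest dose the chemokines Cxcl10 and Cxcl11 rose several-fold, while most of the other interferon-stimulated genes stayed within the spread between rats. Their protein products bind CXCR3, a receptor of activated T and NK cells. At 180 mg/m3, 4 of 36 members were called, all higher, at a Benjamini-Hochberg adjusted p under 0.05 in edgeR's quasi-likelihood test over all genes. Among all genes tested 22.9% were called, and 12% of all genes were called higher, so the share of members called higher was close to the background. The 4 were Cxcl10, Cxcl11, the interferon-induced RNA-binding protein Ifit3 and the transcription factor Stat2. The median log2 fold change of the members was 0.12, against -0.01 over all genes, and it was 0.11 without Cxcl10 and Cxcl11. Although 30 of 36 members had a fold change above 0, 6 had an unadjusted p under 0.05, a lower share than the 33.2% of all genes.

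Cxcl10 in the air rats of this set had a lowest, median and highest level of 0.827, 1.45 and 4.41 CPM. In the 5 exposed rats its levels were 5.61, 5.89, 5.93, 7.82 and 9.52 CPM. Every exposed rat lay above every air rat, as for 7.32% of all genes, although air_180 replicate 1, at 4.41 CPM, stood well above the other air rats. The mean rose from 1.92 ± 1.29 CPM (SD, n = 6) to 6.95 ± 1.68 CPM (SD, n = 5), a log2 fold change of 1.82 ± 0.29 (SE) with an edgeR adjusted p of 2.53e-06. Cxcl11 had 0 to 5 counts in each air library and 7 to 19 in each exposed library. Its air levels had a lowest, median and highest of 0, 0.175 and 0.392 CPM, and the exposed rats had 0.740, 1.22, 1.46, 1.61 and 1.90 CPM. Again the groups did not overlap. The mean went from 0.189 ± 0.185 CPM (SD, n = 6) to 1.39 ± 0.438 CPM (SD, n = 5), a log2 fold change of 2.76 ± 0.50 (SE) with an edgeR adjusted p of 2.87e-05. With so few counts in air the size of this rise is uncertain, and its 95% interval ran from 1.75 to 3.78 on the log2 scale.

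Cxcl9, the neighbour of both and a classical target of interferon gamma, had air levels of 4.11, 5.03 and 7.85 CPM (lowest, median and highest). The exposed rats had 5.18, 6.52, 6.77, 7.72 and 7.91 CPM. The ranges overlapped, although 4 of the 5 exposed rats were above the air mean of 5.53 CPM. The log2 fold change of 0.30 ± 0.16 (SE) did not pass (edgeR adjusted p = 0.171, 95% interval -0.01 to 0.61). Without air_180 replicate 6, the highest air rat, Cxcl9 was at 0.42 with an adjusted p of 0.0458.

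At 90 mg/m3 the same chemokines rose, and the rest of the members leaned the other way. Here 4 of 36 members were called, Cxcl10 and Cxcl11 as higher and the transcription factor Irf9 and the antiviral GTPase Mx2 as lower, where 11.1% of all genes were called. The median log2 fold change of the members was -0.22, against -0.01 over all genes, and 33 of 36 lay below 0.

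Cxcl10 ranged from 1.73 through a median of 2.34 to 3.31 CPM in the 6 air rats. The 4 exposed rats had 3.68, 5.09, 6.74 and 9.43 CPM. All exposed rats were above all air rats, as for 6.69% of all genes, and the log2 fold change was 1.37 ± 0.29 (SE) with an edgeR adjusted p of 0.000774. Cxcl11 was at 0.182, 0.231 and 0.457 CPM in air (lowest, median and highest), which came from 2 to 5 counts per library. Exposed rats had 0.606, 0.714, 1.37 and 1.43 CPM from 7 to 21 counts. The groups did not overlap, and the log2 fold change was 1.87 ± 0.50 (SE) with an edgeR adjusted p of 0.00883. This call rested on MWCNT_090 replicate 3, without which the log2 fold change was 1.68 and the adjusted p 0.0544. Cxcl9 pointed down, from 5.19, 6.69 and 8.32 CPM in air to 3.46, 5.17, 5.53 and 5.71 CPM in the exposed rats, and did not pass (log2 fold change -0.44 ± 0.17 SE, edgeR adjusted p = 0.0755). Without air_090 replicate 1, Cxcl9 was called lower at -0.51 with an adjusted p of 0.0458.

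**Figure D1:**
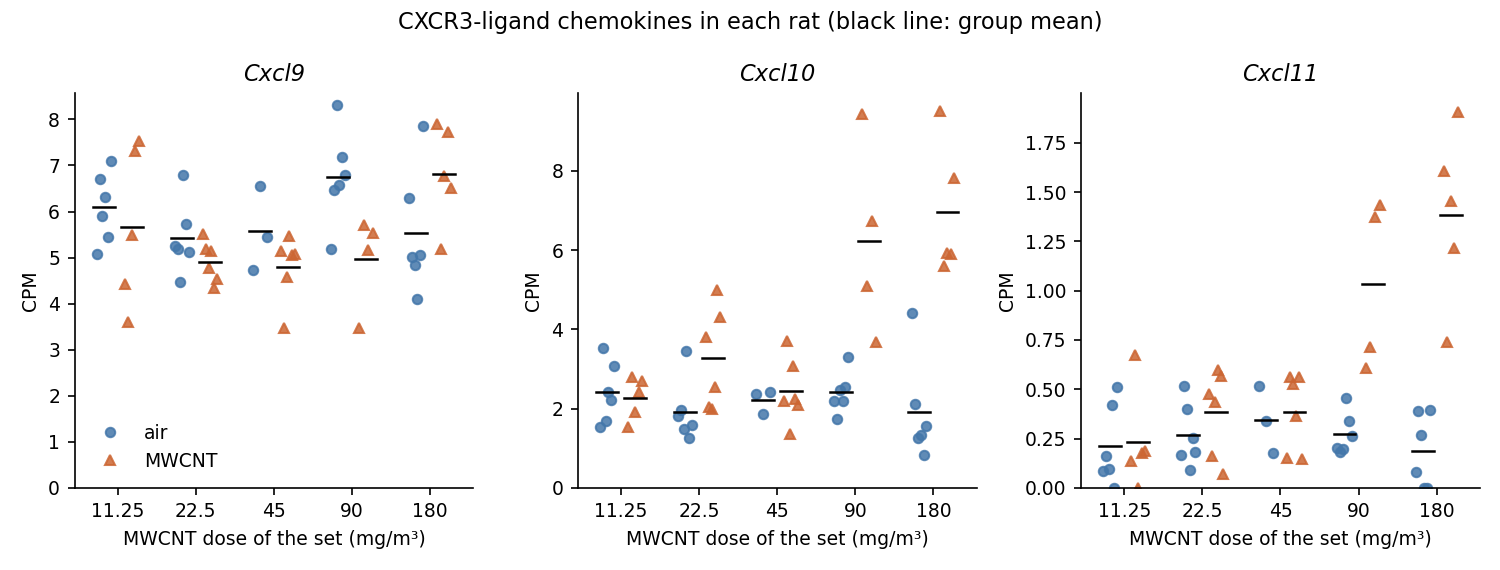
Levels of Cxcl9, Cxcl10 and Cxcl11 in CPM (linear axes from 0) in each of the 53 rats by the dose of their set, with air rats as circles, exposed rats as triangles and group means as black lines. Exposed rats at 90 and 180 mg/m3 lie above all air rats of their set for Cxcl10 and Cxcl11 and overlap them for Cxcl9.

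At the lower doses no chemokine was called. For Cxcl10 at 22.5 mg/m3 the air rats spanned 1.27 to 3.44 CPM around a median of 1.69, and the exposed rats spanned 1.99 to 4.99 around a median of 3.17. All 6 exposed rats were above the air mean, but the groups overlapped and the log2 fold change of 0.77 ± 0.29 (SE) did not pass (edgeR adjusted p = 0.102). The overlap came from air_022 replicate 4 at 3.44 CPM, and without it the log2 fold change was 1.01 with an adjusted p of 0.0319. Cxcl10 was at 0.14 ± 0.35 at 45 mg/m3 and at -0.11 ± 0.31 at 11.25 mg/m3 (log2 fold change ± SE), with intervals of -0.57 to 0.85 and -0.73 to 0.52. Cxcl11 had 0 to 9 counts per library in these 3 sets, and its log2 fold changes were 0.54, 0.13 and 0.03 at 22.5, 45 and 11.25 mg/m3. The Cxcl10 estimate at 90 mg/m3, 1.37, lay above its intervals at all 3 of these doses, narrowly so at 22.5 mg/m3 (0.19 to 1.35). Its own interval, 0.78 to 1.97, overlapped those at 22.5 and 45 mg/m3.

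A line fitted over the 5 sets rose with dose for both chemokines, although both fold changes were smaller at 45 than at 22.5 mg/m3. For the slope of the log2 fold change per doubling of dose, 2 of 36 members were called, where 10.7% of all genes were. Cxcl10 gained 0.45 ± 0.09 (SE) per doubling (edgeR adjusted p = 0.000883) and Cxcl11 0.68 ± 0.19 (adjusted p = 0.0132), while Cxcl9 gained 0.05 ± 0.05 (adjusted p = 0.61). The Cxcl11 slope lost its call without air_011 replicate 6 (0.58, adjusted p = 0.0621). A joint test for unequal effects over the sets called Cxcl10 alone (edgeR adjusted p = 0.00688) of 36 members, against 4.92% of all genes. For the mean effect over the sets 4 members were called and 32.2% of all genes were. These were Cxcl10 at 0.80 ± 0.14 (SE), Cxcl11 at 1.07 ± 0.26, and, as lower, Ifi44 at -0.15 ± 0.05 (adjusted p = 0.0173) and Ifi27 at -0.14 ± 0.06 (adjusted p = 0.0452). The Ifi27 call was lost under 29 of 60 alternatives, among them no filter on low counts (adjusted p = 0.0608) and leaving out air_045 replicate 4 (-0.12, adjusted p = 0.113), and with all 60 libraries the value was 0.012.

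The ratio of each chemokine to Cxcl9 within the same lung, chosen after these values were seen, is given as a description with no test. It was taken as log2 of CPM plus a pseudocount of 0.5. At 180 mg/m3 the mean log2 ratio of Cxcl10 to Cxcl9 went from -1.43 ± 0.61 (SD, n = 6) to 0.01 ± 0.27 (SD, n = 5), and at 90 mg/m3 from -1.33 ± 0.27 (SD, n = 6) to 0.25 ± 0.80 (SD, n = 4). The mean log2 ratio of Cxcl11 to Cxcl9 was higher in the exposed rats by 1.17 at 180 mg/m3 and by 1.37 at 90 mg/m3. The pseudocount was above every Cxcl11 level in the air rats of both sets, so the size and order of these differences depend on it. At 22.5 mg/m3 the difference was 0.75 for Cxcl10 and 0.31 for Cxcl11, and at 45 and 11.25 mg/m3 the differences were 0.09 to 0.27.

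The remaining calls had smaller fold changes, and each was lost when certain single rats were left out. Stat2, which carries the type I signal to the nucleus with Irf9, was at 117, 126 and 136 CPM in air_180 (lowest, median and highest). The exposed rats had 131, 140, 144.7, 156 and 160 CPM. Their lowest rat lay inside the air range, and the log2 fold change was 0.21 ± 0.08 (SE, edgeR adjusted p = 0.0486). Leaving out any of 9 of the 11 rats of this set ended the call. The log2 fold change then stayed at 0.17 to 0.22, with edgeR adjusted p of 0.0559 to 0.158.

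Ifit3 ran from 30.1 through a median of 34.2 to 42.6 CPM in air_180. Exposed rats had 37.8, 42.8, 50.2, 66.4 and 68.8 CPM. A pair of exposed rats was far above the air range and the lowest lay inside it, and the log2 fold change was 0.60 ± 0.20 (SE, edgeR adjusted p = 0.024). The call was lost without air_180 replicate 4 (adjusted p = 0.0529), MWCNT_180 replicate 2 (0.0976) or MWCNT_180 replicate 4 (0.0921). Without any of these 3 rats, Cxcl10 and Cxcl11 were the only members called at 180 mg/m3.

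Mx2 at 90 mg/m3 had air levels of 88.5, 111.3 and 306 CPM (lowest, median and highest). The exposed rats had 70.8, 76.9, 84.3 and 110 CPM. The highest air rat, air_090 replicate 6, was far from the others, and the log2 fold change was -0.69 ± 0.22 (SE, edgeR adjusted p = 0.0381). Irf9 was at 93.9, 104 and 137 CPM in air and at 86.1, 87.2, 87.3 and 104 CPM in exposed rats, with overlap between the groups. Its log2 fold change was -0.26 ± 0.09 (SE, edgeR adjusted p = 0.0367). Without air_090 replicate 6, Mx2 was at -0.28 (adjusted p = 0.337) and Irf9 at -0.19 (adjusted p = 0.156), and only Cxcl10 and Cxcl11 remained called. Leaving out MWCNT_090 replicate 1, 2 or 4 also ended both calls.

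That air rat moved the whole list at 90 mg/m3. Without it the median log2 fold change of the members was -0.07 in place of -0.22, and 28 in place of 33 members lay below 0. Members with an unadjusted p under 0.05 fell from 14 to 4.

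**Figure D2:**
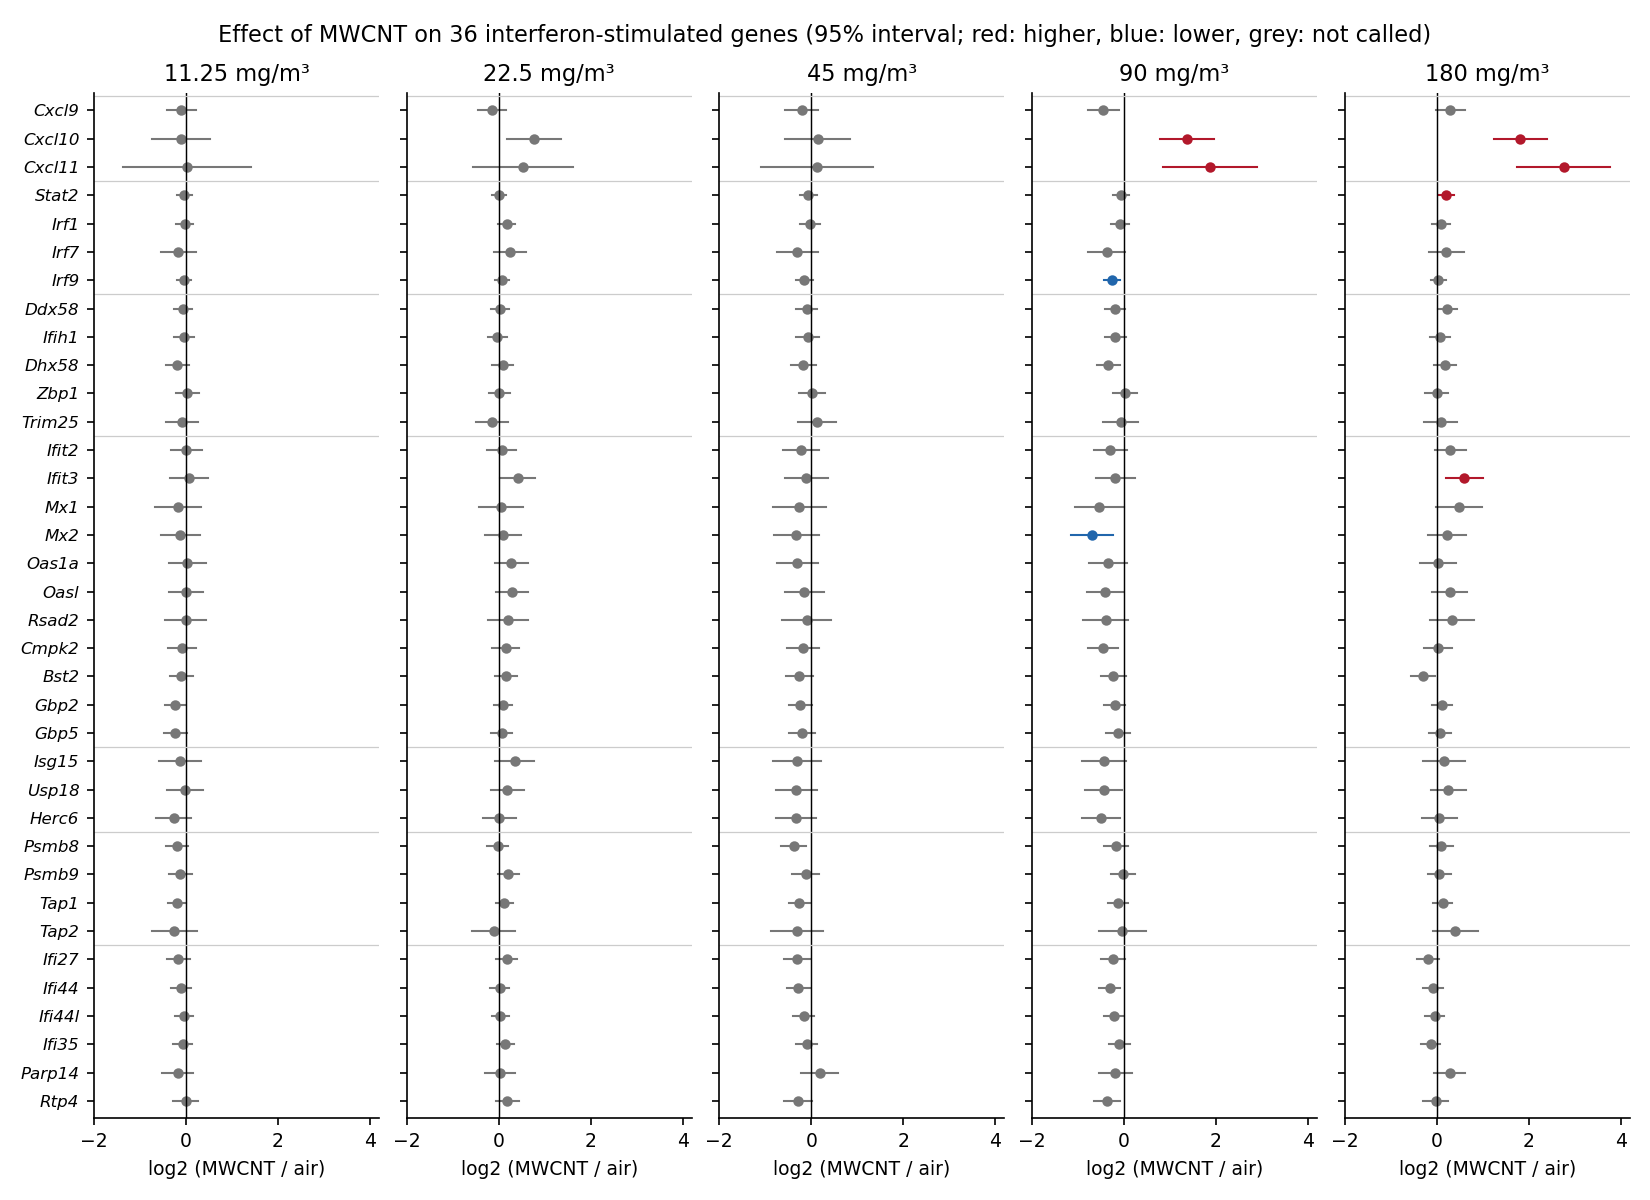
Log2 fold change of exposed over air rats (x axis) for the 36 members (rows, grouped by role) at each dose (panels), with 95% intervals as lines. Red marks members called higher, blue members called lower and grey those not called, and Cxcl10 and Cxcl11 at 90 and 180 mg/m3 stand apart from the other rows.

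By role, the signalling and transcription factors Stat2, Irf1, Irf7 and Irf9 had log2 fold changes between 0.03 and 0.21 at 180 mg/m3, and 1 of 4 was called. Irf7, the regulator that drives type I interferon genes and is itself interferon-induced, went from 59.4, 67.4 and 96.1 CPM in air (lowest, median and highest) to 64.9, 75.9, 77.8, 96.2 and 100 CPM. Both groups covered nearly the same range (log2 fold change 0.21 ± 0.19 SE, edgeR adjusted p = 0.472). Irf1, which acts downstream of interferon gamma and of inflammatory signals, was at 0.10 ± 0.09.

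Among the nucleic acid sensors and their regulators 0 of 5 were called in any of the 5 sets. They comprise Ddx58 (RIG-I) and Ifih1 (MDA5), which detect viral RNA, Dhx58, which modulates them, the Z-nucleic acid sensor Zbp1, and Trim25, a ubiquitin ligase that supports RIG-I. Ddx58 came nearest at 180 mg/m3, where exposed rats at 82.8 to 92.1 CPM lay above air rats at 68.5 to 81.5 CPM without overlap (log2 fold change 0.23 ± 0.10 SE, edgeR adjusted p = 0.0814). Zbp1 was at 0.00 ± 0.13.

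The 11 antiviral effectors had a median log2 fold change of 0.22 at 180 mg/m3, -0.35 at 90 mg/m3 and -0.23 at 45 mg/m3, and 1 was called at 180 mg/m3. Mx1, a GTPase that blocks viral replication, was at 50.1, 57.3 and 85.3 CPM in air_180 (lowest, median and highest). Exposed rats had 60.4, 81.7, 88.6, 93.7 and 101.2 CPM. Most exposed rats were above most air rats, but the ranges overlapped (log2 fold change 0.48 ± 0.25 SE, edgeR adjusted p = 0.169). Ifit2, a partner of Ifit3, was at 0.30 ± 0.17 and Rsad2, which encodes the antiviral enzyme viperin, at 0.34 ± 0.23. Oas1a, an oligoadenylate synthetase that senses double-stranded RNA, was at 0.03 ± 0.20, and the mitochondrial nucleotide kinase Cmpk2 at 0.03 ± 0.15. Bst2, the virus-tethering membrane protein, was lower in all 5 exposed rats than the air mean, at -0.29 ± 0.13 (edgeR adjusted p = 0.0955). Mx1 and Mx2, the Oas genes and the guanylate-binding proteins Gbp2 and Gbp5 have close relatives in the rat genome, and how reads shared between copies were counted is not given in the sources used here.

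None of the 3 genes of the ISG15 system was called in any set. Isg15, a ubiquitin-like protein attached to other proteins after interferon, was at 22.2, 29.7 and 44.7 CPM in air_180 (lowest, median and highest). In exposed rats it was at 25.8, 28.6, 33.3, 42.4 and 43.1 CPM. These ranges coincided, with a log2 fold change of 0.17 ± 0.23 (SE) and a 95% interval of -0.29 to 0.63. Usp18, which removes Isg15, was at 0.26 ± 0.19 and Herc6, a ligase that attaches it, at 0.06 ± 0.19.

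The immunoproteasome subunits Psmb8 and Psmb9 and the peptide transporter genes Tap1 and Tap2, which lie side by side on chromosome 20 and supply peptides to class I molecules, gave 0 calls of 4 in every set. Psmb8 was at 23.9, 25.7 and 27.9 CPM in air_180 (lowest, median and highest) and at 24.6, 27.2, 27.7, 29.05 and 30.8 CPM in exposed rats. The groups overlapped (log2 fold change 0.11 ± 0.12 SE, edgeR adjusted p = 0.596). At 45 mg/m3 Psmb8 was at -0.38 ± 0.14 (adjusted p = 0.0918).

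The other interferon-induced genes had a median log2 fold change of -0.06 at 180 mg/m3, with 0 of 6 called. Ifi27, a small membrane protein, was at 314, 387 and 461 CPM in air_180 (lowest, median and highest) and at 310, 315, 316, 337 and 394 CPM in exposed rats. Of the 5 exposed rats 4 lay below the air mean, yet the ranges overlapped (log2 fold change -0.19 ± 0.12 SE, edgeR adjusted p = 0.297). Over the sets Ifi27 was at -0.23 at 90, -0.31 at 45, 0.17 at 22.5 and -0.16 at 11.25 mg/m3. Ifi44 was at 79.4, 87.7 and 102.02 CPM in air_180 and at 73.4, 80.6, 83.9, 86.7 and 97.9 CPM in exposed rats, a log2 fold change of -0.08 ± 0.11. It was at -0.31 at 90, -0.28 at 45, 0.03 at 22.5 and -0.10 at 11.25 mg/m3. The call of Ifi44 for the mean effect was lost without air_045 replicate 4 (-0.13, edgeR adjusted p = 0.0521). Parp14, an ADP-ribosyltransferase, was above all air rats in all exposed rats at 180 mg/m3 by a narrow margin (99.4 to 126 against 75.9 to 99.1 CPM) and was not called (0.29 ± 0.17, adjusted p = 0.234). With this set fitted alone Parp14 was called higher at 0.29 (edgeR adjusted p = 0.0154), as were Ddx58 and Ifit2.

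By edgeR 0 members were called at 45 mg/m3, where 5.41% of all genes were called. Likewise 0 were called at 22.5 mg/m3 (6.8% of all genes) and at 11.25 mg/m3 (0.025% of all genes). With an unadjusted p under 0.05 there were 4, 2 and 2 of 36 members in these 3 sets. The 45 mg/m3 set, with 3 air rats, had a median member fold change of -0.19 on the log2 scale, and 31 of 36 members were below 0. In 6 members, Dhx58, Mx1, Mx2, Gbp2, Isg15 and Herc6, all exposed rats lay under all air rats, against 6.29% of all genes that did so in this set. Isg15 was at 27.999, 31.97 and 32.2 CPM in air_045 and at 23.2 to 26.8 CPM in MWCNT_045 around a median of 24.6, a log2 fold change of -0.31 ± 0.26 (edgeR adjusted p = 0.609). With this set fitted alone Isg15 was called lower at -0.30 (edgeR adjusted p = 0.0267), together with Irf7, Ifi27, Ifi44 and Rtp4. With the air rats of every set pooled as the control 7 members were called, all lower, namely Irf9, Ifit2, Mx2, Gbp2, Gbp5, Ifi44 and Rtp4. At 22.5 mg/m3 the lean was upward, with 31 of 36 above 0 and a median of 0.10, and at 11.25 mg/m3 it was downward, with 31 of 36 below 0 and a median of -0.09. The medians of all genes stayed within 0.01 of 0 in each set, so the members leaned together, in directions that differed between sets, without passing in the model over all sets.

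The members varied widely from rat to rat within the groups. The median biological coefficient of variation was 0.145 over the members and 0.0904 over all genes tested. They also varied together. The median correlation over 630 pairs of members, from residuals of the group means in 53 libraries, was 0.44, against 0.00 over pairs of all genes, and it was 0.41 without air_090 replicate 6. These correlations are across rats that share runs and are given as a description. Mx1 and Mx2 had r = 0.95, and Irf7 with Mx2 had r = 0.93. The medians against the other members were 0.33 for Cxcl10, 0.17 for Cxcl9 and 0.09 for Cxcl11, which rests on few counts. Members with other roles were as low as Cxcl10, such as Irf1 at 0.33, Psmb8 at 0.28 and Parp14 at 0.25. Cxcl10 had r = 0.42 with Irf7 and r = 0.11 with Cxcl9. Tap2 and Trim25 did not vary with the rest, with medians of -0.13 and -0.01.

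**Figure D3:**
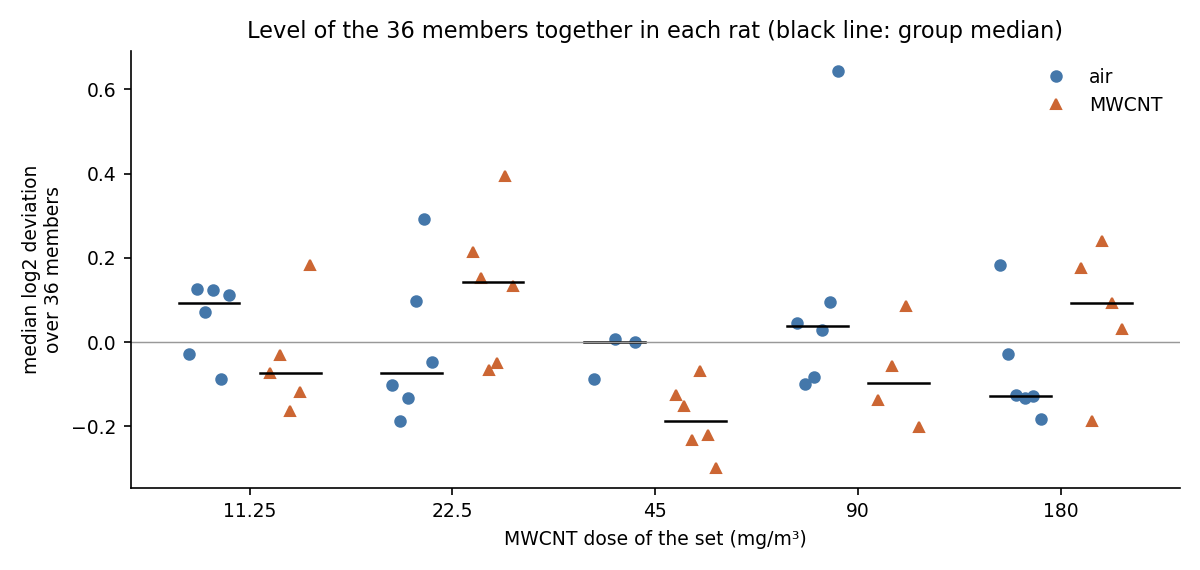
Median log2 deviation of the 36 members, each from its own mean log2 CPM over all rats (y axis) in each of the 53 rats by the dose of their set, with air rats as circles, exposed rats as triangles and group medians as black lines. Air and exposed rats overlap in every set, and air_090 replicate 6 stands alone at 0.64.

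That rat, which breathed air only, had the highest median deviation of the 53 rats. It was the highest of its 6 rats for 32 of 36 members. Mx1 was 3.58 times the mean of the other 5 air rats, Rsad2 3.26 times, Mx2 2.93 times, Ifit2 2.75 times and Isg15 2.66 times. Not all members were raised, with Cxcl9 at 1.01, Irf1 at 1.11, Psmb9 at 1.11 and Tap2 at 0.696 times the others. Outside the members, Oas2 was at 47.2 CPM in this rat and between 12.3 and 21.5 CPM in the other 5. Ifit1, at 1.83 CPM, lay within their range of 1.005 to 1.896 CPM. Of the genes that interferon gamma is known to induce, Gbp1 was at 8.54 CPM against 2.28 to 3.65 CPM in the others. Igtp was at 123 CPM against 73.4 to 85.4 CPM. Over 24 listed targets of interferon gamma outside the members, the median ratio to the other rats was 1.08 (0.90 to 2.95). The rat was chosen for these values, so no test is given. Its total of 11.5, in units of 1000000 counts, lay near the median, and T and NK cell markers were at a median of 0.959 times the other rats.

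In another air rat, air_011 replicate 2, the guanylate-binding proteins Gbp5 and Gbp2 were at 1.74 and 1.68 times the mean of the other 5 rats, Psmb9 at 1.68, Tap1 at 1.62, Cxcl10 at 1.61 and Irf1 at 1.41. In the same rat Mx1 was at 0.876, Isg15 at 1.01 and Oas1a at 0.657 times the others. Of the genes known to be induced by interferon gamma, Gbp1 was at 18.0 CPM against 3.23 to 4.68 CPM in the other rats, Batf2 at 18.8 against 4.13 to 5.68 CPM, and Igtp at 202 against 81.4 to 97.8 CPM. Over the 24 listed targets of interferon gamma the median ratio to the other rats was 1.22 (0.788 to 4.72). Oas2, at 12.7 CPM, lay below the other rats (14.72 to 21.95 CPM). Ifng itself had 1 count in this library. T and NK cell markers were at a median of 1.29 and liver markers at 1.51 times the other rats, and their part in these values was not tested.

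In an exposed rat, MWCNT_022 replicate 5, Isg15 was at 2.15, Ifi27 at 1.92, Bst2 at 1.79, Rtp4 at 1.75, Oas1a at 1.74, Ifit3 at 1.73, Irf7 at 1.65 and Mx1 at 1.32 times the mean of the other 5 exposed rats. In the same lung Cxcl10 was at 1.70, Psmb9 at 1.66, Trim25 at 0.375 and Parp14 at 0.522 times the others. Ifit3, Irf7, Mx1 and Isg15 were thus raised both here and in air_090 replicate 6. Part of this profile was also found in air_022 replicate 2, an air rat of the same run. Against the other air rats it had Trim25 at 0.387, Parp14 at 0.481, Bst2 at 1.475, Psmb9 at 1.436, Ifi27 at 1.302 and Isg15 at 1.277. Its Rtp4 was at 1.194, Oas1a at 0.941, Ifit3 at 0.939, Irf7 at 0.781 and Mx1 at 0.583. What these libraries share was not tested. The 3 rats, air_090 replicate 6, air_011 replicate 2 and MWCNT_022 replicate 5, were chosen for their values and are not the only ones with many high members. The highest level of their group was found for 28 of 36 members in MWCNT_090 replicate 3, 27 in MWCNT_011 replicate 6, 26 in air_180 replicate 1 and 24 in air_022 replicate 5. Members vary together, so such a count alone does not set a rat apart. MWCNT_090 replicate 3, in a group of 4, had a median deviation of only 0.09. Mx1 was at 1.55 times the others in MWCNT_011 replicate 6, 1.52 in air_180 replicate 1 and 1.76 in air_022 replicate 5. Gbp1 was highest in MWCNT_011 replicate 6 (5.85 CPM against 1.92 to 3.13 CPM) and in air_022 replicate 5 (7.51 CPM against 1.24 to 5.07 CPM). Over the 24 listed targets of interferon gamma the median ratio was 1.06 in MWCNT_011 replicate 6 and in air_022 replicate 5. It was 1.12 in air_180 replicate 1 and 1.19 (0.818 to 1.66) in MWCNT_022 replicate 5, near the 1.22 of air_011 replicate 2. In MWCNT_022 replicate 5 neutrophil markers were at a median of 1.28, T and NK cell markers at 1.29 and liver markers at 1.57 times the other rats. Their part in the values of that rat was not tested.

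**Figure D4:**
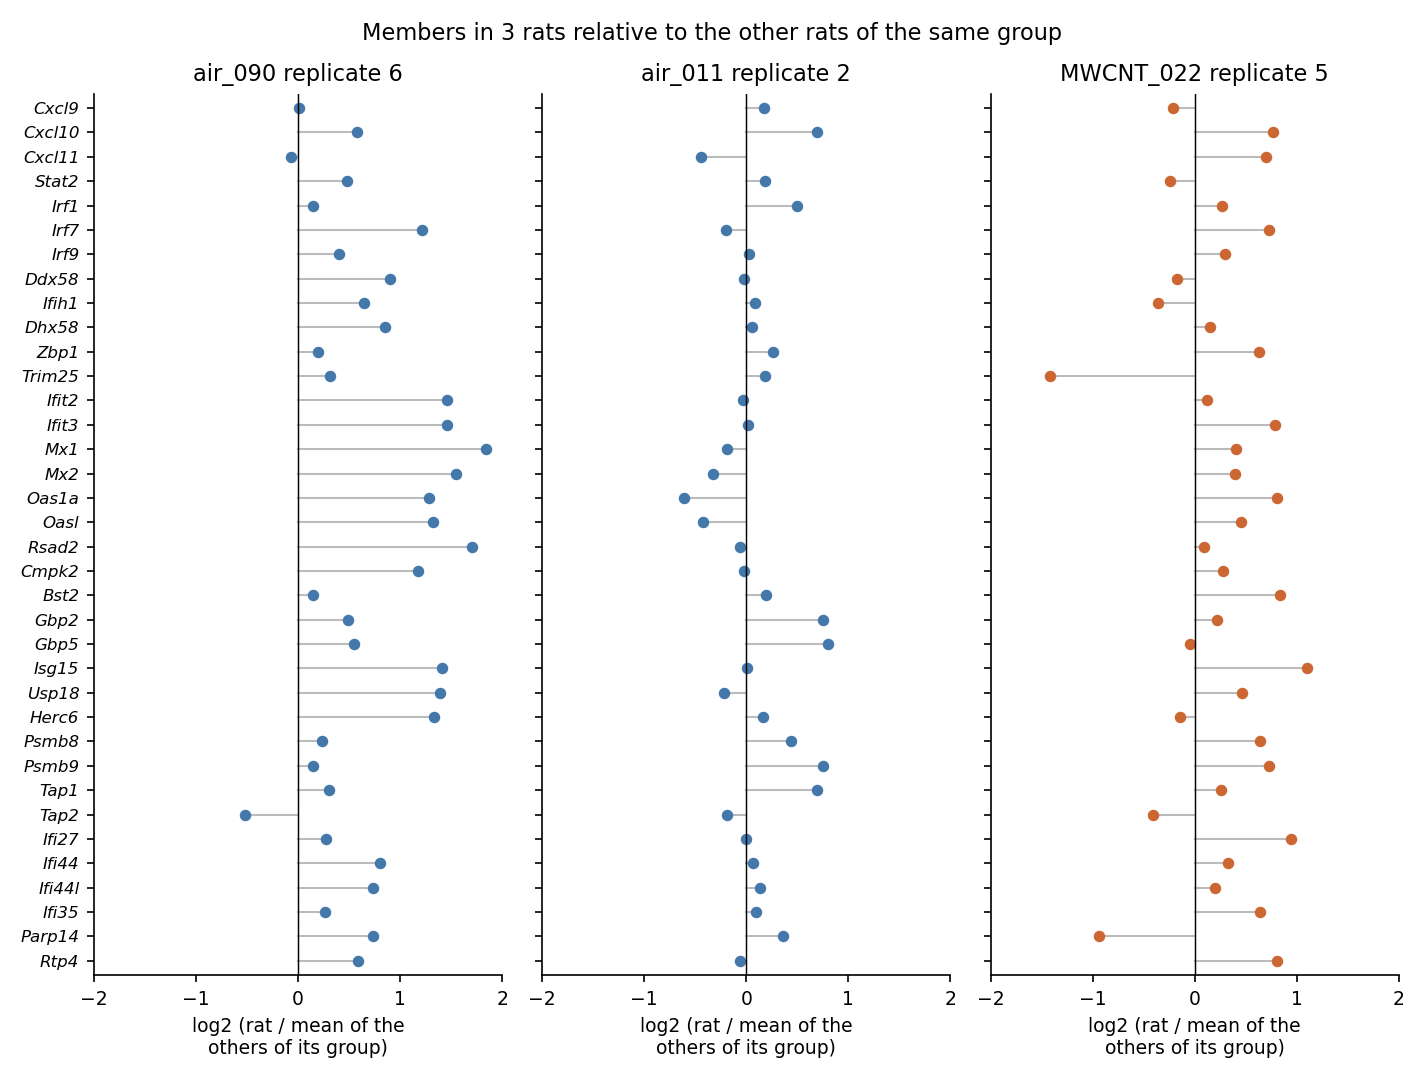
Log2 ratio of the level in a single rat to the mean of the other rats of its group (x axis) for the 36 members (rows) in 3 rats (panels). Antiviral members such as Mx1 are high in air_090 replicate 6, Gbp2, Gbp5, Psmb9 and Tap1 in air_011 replicate 2, and Isg15 and Ifi27 in MWCNT_022 replicate 5.

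Among the 5 air groups, 1 of 36 members differed, Parp14 (edgeR adjusted p = 0.0361), where 7.11% of all genes did. Its air mean was highest at 123 ± 16.5 CPM (SD, n = 6) in air_011 and lowest at 79.7 ± 12.9 CPM (SD, n = 3) in air_045. For Cxcl10 the air means ran from 1.92 to 2.41 CPM, and the test of a difference among them gave an edgeR adjusted p of 0.815.

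Of the interferon genes themselves little RNA was counted. The 10 type I and type III interferon genes in the table had 33 counts in total over 53 libraries, and 6 of them had 0 counts in every library. A count of 0 in a library allows up to 3 counts, or 0.185 to 0.370 CPM at these depths, for counting error only. Ifng, which encodes interferon gamma, had 0 to 3 counts per library, with 7 counts in total in air_180 (n = 6) and 9 in MWCNT_180 (n = 5). In the other sets the total for exposed rats was 9 at 90 mg/m3 (4 rats), 4 at 45 mg/m3 (6 rats), 8 at 22.5 mg/m3 (6 rats) and 7 at 11.25 mg/m3 (5 rats), and the total for air rats was 6 (6 rats), 3 (3 rats), 6 (6 rats) and 3 (6 rats) in the same order. Ifng did not pass the filter on low counts and was not tested. Il15, a cytokine that sustains NK cells and memory T cells, fell from 22.6 ± 4.17 CPM (SD, n = 6) to 16.5 ± 1.32 CPM (SD, n = 5) at 180 mg/m3 (log2 fold change -0.46 ± 0.12 SE, edgeR adjusted p = 0.00206).

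Other genes of the pathway, from lists made with earlier results of these data known, moved at 180 mg/m3 as follows. Among all genes tested 22.9% were called in either direction and 12% were called higher. Of 17 receptors, kinases and adaptors 6 rose and 1 fell, among them the myeloid transcription factors Irf8 (log2 fold change 0.72 ± 0.07 SE) and Irf5 (0.58 ± 0.08), the feedback inhibitor Socs3 (0.93 ± 0.15) and Stat3 (0.30 ± 0.06). Of 13 genes that sense nucleic acids or microbes upstream of interferon 5 rose and 0 fell, including Tmem173, which encodes STING, at 0.71 ± 0.08, the adaptors Ticam1 at 0.37 ± 0.07 and Myd88 at 0.28 ± 0.06, and the kinase Ikbke at 0.28 ± 0.08. Irf8 went from 67.5 ± 6.64 to 111.8 ± 11.3 CPM and Tmem173 from 25.5 ± 2.86 to 42.04 ± 1.26 CPM (SD, n = 6 and n = 5).

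Of 39 further interferon-stimulated genes 9 rose and 1 fell, with a list median of 0.14. In either direction this was near the 22.9% of all genes called, while 12% of all genes were called higher. The 4 with the smallest adjusted p were the lysosomal thiol reductase Ifi30 (0.66 ± 0.08), the membrane protein Ifitm1 (0.59 ± 0.09), the secreted glycoprotein Lgals3bp (0.43 ± 0.07) and Ifit1 (0.96 ± 0.22). Of 24 further targets of interferon gamma 6 rose and 1 fell, to be read against the same shares, with a median of 0.16. The 4 with the smallest adjusted p were Ciita, the master regulator of class II genes (0.62 ± 0.08), the complement inhibitor Serping1 (0.40 ± 0.06), the checkpoint ligand Cd274 (0.36 ± 0.10) and the adhesion molecule Vcam1 (0.22 ± 0.07). Cxcr3, the receptor of the 3 chemokines, was named after its value was seen and rose from 3.76 ± 1.23 to 5.35 ± 0.824 CPM (0.50 ± 0.16, edgeR adjusted p = 0.0199).

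Markers of immune cells were measured in the same lungs. Their counts at 180 mg/m3 are to be read against 22.9% of all genes called, with 12% of all genes called higher. For 90 mg/m3 the share of all genes called was 11.1%. At 180 mg/m3, 5 of 8 tested monocyte and macrophage markers rose, and the summed level of the list was 16176 to 24858 CPM in air rats and 22384 to 25103 CPM in exposed rats. Of conventional dendritic cell markers 4 of 7 rose, with sums of 119 to 140 CPM in air and 176 to 192 CPM in exposed rats. Of 8 neutrophil markers 5 rose, with sums of 129 to 213 CPM in air and 246 to 327 CPM in exposed rats. T and NK cell markers went the other way, with 7 of 20 lower and sums of 455 to 703 CPM in air and 400 to 538 CPM in exposed rats. Plasmacytoid dendritic cells are a main source of type I interferon, and 2 of their 8 tested markers rose and 1 fell, with sums of 313 to 438 CPM and 343 to 436 CPM. At 90 mg/m3, 3 of 8 monocyte and macrophage, 3 of 7 dendritic cell and 4 of 8 neutrophil markers rose, and 0 of 20 T and NK cell markers changed. The part of these cell types in the Cxcl10 and Cxcl11 values was not tested.

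Liver RNA was measured beside these values because 3 of the libraries with an outlier label had a liver profile, with liver markers at 21.2% to 24.3% of counts. In those 3 libraries Cxcl11 was at 39.4 to 45.0 CPM and Cxcl9 at 33.8 to 41.1 CPM, far above any analysed lung. The analysed libraries had at most 0.0524% of counts in liver markers. The summed level of 12 liver markers was 243 to 487 CPM in air_180 and 307 to 459 CPM in MWCNT_180, and 228 to 305 CPM in air_090 and 273 to 524 CPM in MWCNT_090. Their part in the Cxcl11 values was not tested.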

How the data were processed

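Lung RNA of 60 rats was measured by stranded mRNA sequencing with 12 PCR cycles, per the labels' protocols. The deposited table holds raw read counts per gene symbol, made by the authors. The submitters' processing notes name bcl2fastq 2.19, Trimmomatic 0.35, HISAT2 2.1.0, Cufflinks, SAMtools 1.8 and HTSeq 0.11.2, and which genome build and annotation were used is not given in the sources used here. In 27 rows the symbol had been turned into a date. The 7 libraries labelled as outliers were left out.

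From these counts edgeR 4.0.16 in R 4.3.3 fitted 1 robust quasi-likelihood model with 10 set-by-treatment groups after TMM scaling and filterByExpr (minimum count 10, 15995 genes with 99.932% of counts). Exposed rats were set against the air rats of their own set, and further contrasts gave the mean effect, the slope per doubling of dose, and differences among sets and among air groups. Genes under 0.05 in the Benjamini-Hochberg adjusted p over all genes tested were called. CPM of the members and of genes given for single rats are counts scaled to 1000000 with the TMM factors. Group means of pathway genes and marker sums are scaled to the library total without these factors. CPM in libraries labelled as outliers come from a separate TMM scaling over all 60 libraries. The standard error (SE) is that of the log2 fold change. Motifs were searched in RefSeq promoters. Replicates are separate rats, no 2 libraries of a group were duplicates (smallest chi-square per degree of freedom 2.60), and reads carried no molecular identifiers.

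The members, the gene lists and the tests were chosen with earlier results of these data known. Per-rat values are given by rule for each member called in at least 1 set or for the mean effect and for Cxcl9, Irf7, Isg15, Mx1, Ifit3 and Psmb8. Outside the members, up to 4 called genes with the smallest adjusted p at 180 mg/m3 and up to 2 for the mean effect are named from each pathway list. Genes beyond this are said to have been chosen after their values were seen, apart from Ifng and the genes given for single rats. The latter, Oas2, Gbp1, Igtp, Batf2 and Ifit1, were outside this rule and do not stand for their lists. In tests on simulated data the model at 180 mg/m3 called 80% of 1.5-fold, 95% of 2-fold and 100% of 4-fold rises, and 7 of 15572 unchanged genes were called falsely. At 45 mg/m3 it called 75% of 1.5-fold rises and 67.5% of falls to 0.667-fold. The changed genes were drawn from all genes above a mean air level that Cxcl11 did not reach. Members varied more between rats (median coefficient 0.145 against 0.0904), so these rates may be too high for them. Alternatives were all 60 libraries, 57 libraries, DESeq2 size factors, no filter, a stricter filter, DESeq2 1.42.0, limma voom (limma 3.58.1), separate fits per set, a control pooled from every air rat, a linear dose, and each library left out in turn.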

Additional observations from a re-analysis of the deposited data

Results flagged for a closer look

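A rat far from the others of its group is named here with its level in CPM, or for the median of members its log2 deviation. Of 333 groups of values tested over all members, 65 had such a rat, and 21 of them were air_090 replicate 6. Chance flags about 1 in 20 groups of independent values, but the members vary together in the same rats, so the count is not to be read against that share. In that rat the median of the members was 0.64, Mx2 306, Mx1 234, Stat2 181, Irf7 175, Parp14 160, Ifi44 157.5, Ifit3 94.2 and Isg15 82.7. In air_180 replicate 1 Cxcl10 was at 4.41, Irf7 at 96.1, Irf9 at 113.5 and Mx1 at 85.3, and in air_022 replicate 4 Cxcl10 was at 3.44. In MWCNT_022 replicate 5 Ifi27 was at 815, Irf7 at 135, Ifit3 at 75.7 and Isg15 at 75.04. In MWCNT_011 replicate 6 Ifi27 was at 365, Stat2 at 164, Ifi44 at 95.1, Mx1 at 92.6 and Isg15 at 33.7. Others were Cxcl11 at 0.674 in MWCNT_011 replicate 3, Stat2 at 160 in air_011 replicate 2, Stat2 at 109.3 and Mx1 at 39.6 in MWCNT_045 replicate 6, Ifi44 at 91.4 in MWCNT_045 replicate 4, Irf9 at 104 in MWCNT_090 replicate 3 and Parp14 at 126 in MWCNT_180 replicate 6.

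The effect of exposure on Cxcl10 differed among the 5 sets (edgeR adjusted p = 0.00688).

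Among libraries left out of the comparisons, Cxcl11 and Cxcl9 were at 45.0 and 33.8 CPM in air_045 replicate 5, at 41.1 and 34.8 CPM in MWCNT_090 replicate 5, and at 39.4 and 41.1 CPM in MWCNT_090 replicate 6, the 3 libraries with a liver profile.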

How the results depend on the processing

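Cxcl10 kept its direction and its call at 180 mg/m3 under all 20 alternatives (log2 fold change 1.67 to 2.26), at 90 mg/m3 under all 19 (1.11 to 1.56), and for the mean effect under all 60 (0.75 to 0.89). Cxcl11 was not tested under the stricter filter or with each set fitted alone, since it did not pass those filters. Elsewhere it kept its call under 17 of 18 alternatives at 180 mg/m3, 16 of 17 at 90 mg/m3, 58 of 59 for the mean effect and 58 of 60 for the slope. With all 60 libraries its calls were lost at 180 mg/m3 (2.95, adjusted p = 0.247), for the mean effect (1.07, 0.307) and for the slope (0.98, 0.53). With all 60 libraries, which brings in the 3 with a liver profile, members called were 1 at 180 mg/m3, 19 at 90 mg/m3 (8 higher, 11 lower), 1 at 45 mg/m3, 1 for the mean effect, 1 for the slope and 6 for a difference among sets. Reversed there were Cxcl9 (1.17), Stat2 (0.78), Psmb8 (0.74) and Ifi27 (1.05) at 90 mg/m3, Cxcl11 at 45 mg/m3 (-4.19) and Ifi27 for the mean effect (0.012). With 57 libraries 1 member was called at 45 mg/m3. No filter gave 0 for the air groups, and the stricter filter gave 1 for the slope because Cxcl11 was not tested. Each set fitted alone gave 6 at 180 mg/m3 (all higher), 2 at 90 mg/m3 (Cxcl10 higher, Bst2 lower) and 5 at 45 mg/m3 (all lower). A single control of all air rats gave 5 at 180 mg/m3 (Bst2 and Ifi27 lower), 2 at 90, 7 at 45 (all lower) and 2 at 22.5 mg/m3. Limma voom gave 6 at 180 mg/m3 (Bst2 and Ifi27 lower), 7 for the mean effect, 2 for a difference among sets and 2 for the air groups. Beyond the fits named above, the cause was not tested. Leaving out a library in turn gave 2 to 5 members at 180, 2 to 6 at 90, 0 to 1 at 45, 0 to 1 at 22.5 and 0 to 0 at 11.25 mg/m3, 2 to 7 for the mean effect, 1 to 2 for the slope, 1 to 2 for a difference among sets and 0 to 2 for the air groups. DESeq2 gave no joint tests. No paired analysis was possible because the labels number each rat singly and pair none. Cxcl11 rests on 0 to 21 counts per library.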

Other observations

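The 4 other libraries with an outlier label entered no comparison of the report, and their CPM come from a separate scaling over all 60 libraries. MWCNT_180 replicate 1, with a total of 7.77 in units of 1000000 counts, had Cxcl10 at 15.1 CPM, Cxcl11 at 2.52 CPM and Cxcl9 at 6.24 CPM. Its Cxcl10 and Cxcl11 levels lay above those of the 5 analysed exposed rats of its group, while Cxcl9 lay within their range. In MWCNT_011 replicate 2 Cxcl10 was at 1.31 CPM and Cxcl9 at 3.53 CPM. In air_045 replicates 3 and 6 Cxcl10 was at 1.34 and 1.39 CPM, below the 3 analysed air rats of that set.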
